A study of Mus musculus with 2 samples.

Results

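The 6 miRNA entries described here come from hairpins in the mouse Hox clusters and were taken by name from a table of 1374 small RNA entries, which held 10 entries of these hairpins. They are mmu-miR-196a-5p, mmu-miR-196b-5p, mmu-miR-615-3p, mmu-miR-10a-5p, mmu-miR-10b-5p and mmu-miR-10b-3p, and the other 4 entries, all under 100 CPM (counts scaled to the miRNA total of a library) in both libraries, are given after them. The choice was made by name, with earlier results of these data known. The small RNA was that of exosomes, the small vesicles shed by cultured cells, in 2 libraries with no replicate. MSC exosomes came from mesenchymal stem cells of C57BL/6 mice, stromal cells able to form bone, cartilage and fat, and the labels do not name the tissue these were taken from. The control exosomes came from NIH3T3, 1 immortalised fibroblast line derived from NIH Swiss embryos. Both cell types were kept for 72 hours in αMEM with 5% fetal bovine serum.

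Hox genes encode transcription factors that set position along the body axis, and their order on the chromosome, read 5′ to 3′, parallels the order of their expression from tail to head. Stromal cells and fibroblasts keep a Hox pattern that reflects where in the body they came from. The miRNA genes embedded in these clusters are expressed in matching domains. miR-196 directs cleavage of Hoxb8 mRNA in mouse embryos and its genes lie toward the tail end of the clusters, whereas the miR-10 genes lie beside the Hox4 genes nearer the head end. miR-615 sits in an intron of Hoxc5.

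The mature sequences are shown first, because the members fall into sets that share a seed, the bases 2 to 8 that select targets. They are the RefSeq sequences of GRCm38.p6, 5′ to 3′, with the seed in capitals, and all 10 entries of these hairpins in the table matched a RefSeq sequence at the same position.
miR-196a-5p: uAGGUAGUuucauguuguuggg
miR-196b-5p: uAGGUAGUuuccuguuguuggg
miR-10a-5p: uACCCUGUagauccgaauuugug
miR-10b-5p: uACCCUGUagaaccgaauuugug
miR-10b-3p: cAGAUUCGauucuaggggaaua
miR-615-3p: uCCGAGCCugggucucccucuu
miR-196a-5p and miR-196b-5p share the seed AGGUAGU and differ by A12C, counted from 1 at the 5′ end with the base of miR-196a-5p first. miR-10a-5p and miR-10b-5p share ACCCUGU and differ by U12A, with the base of miR-10a-5p first. In the RefSeq mouse set no other mature miRNA had either seed, and none shared that of miR-615-3p or miR-10b-3p. Since 1 base separates the members of each set, reads can be exchanged between them in counting, and each set is also given as a sum.

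The 6 hairpins behind these entries lie in all 4 Hox clusters, at positions given in mm10. miR-196a-5p has 2 sources, Mir196a-1 on chromosome 11 (96265164 to 96265265, plus strand) and Mir196a-2 on chromosome 15 (102973350 to 102973434, plus strand). The GENCODE M21 annotation places Mir196a-1 between genes, 6.38 kb before the start codon of Hoxb9, and Mir196a-2 in an intron of a long Hoxc5 transcript, between the start codons of Hoxc10 and Hoxc9. Mir196b, on the minus strand of chromosome 6 (52230081 to 52230165), lies between the start codons of Hoxa10 and Hoxa9 and inside an exon of 2 Hoxa9 transcripts. Mir10a, on chromosome 11 (96317165 to 96317274, plus strand), lies between genes and 1.60 kb before the start codon of Hoxb4. Mir10b, on chromosome 2 (74726070 to 74726137, plus strand), is 1.21 kb before that of Hoxd4, in an intron of Hoxd4 and Hoxd3 transcripts. Mir615, on chromosome 15 (103014910 to 103015001, plus strand), is in an intron of Hoxc5.

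**Figure D1:**
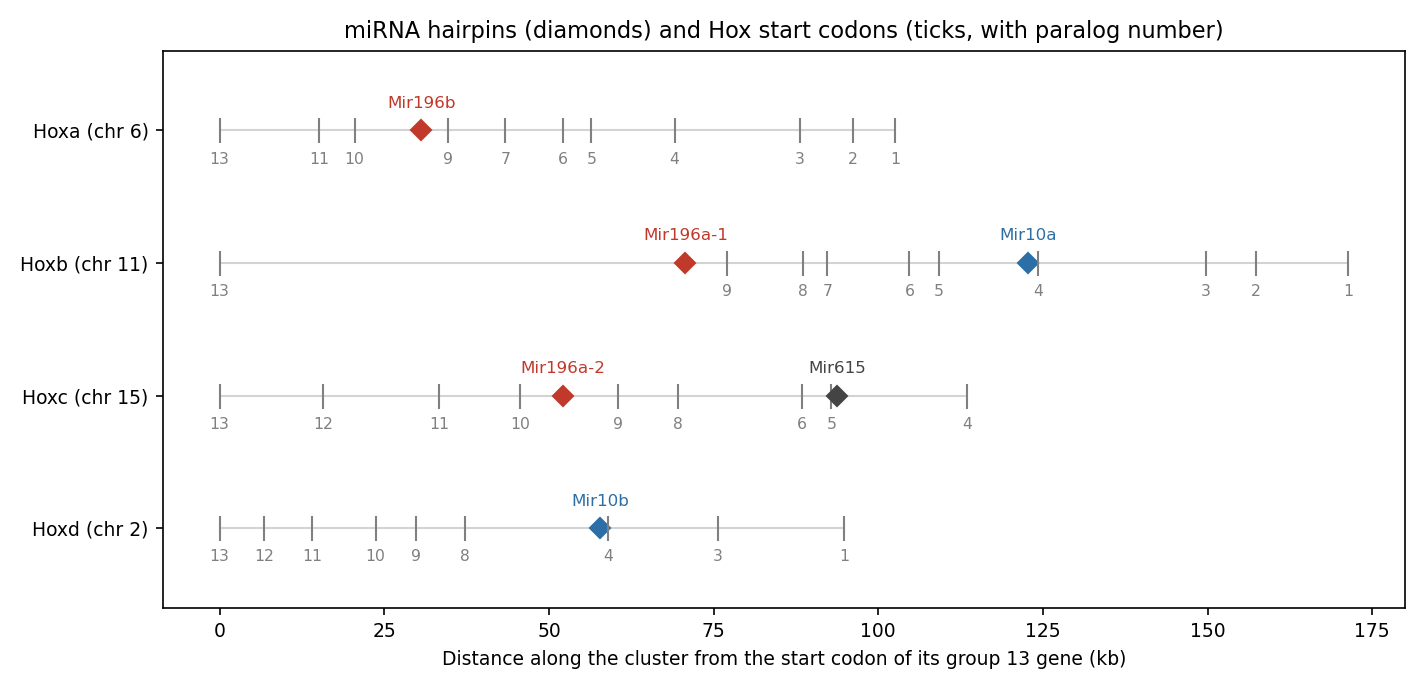
The map draws each Hox cluster 5′ to 3′, in kb from the start codon of its first gene (Hoxa13, Hoxb13, Hoxc13 or Hoxd13); ticks are Hox start codons with their paralog number and diamonds are miRNA hairpins. Hairpins of miR-196 (red) precede the genes numbered 9 and those of miR-10 (blue) precede the genes numbered 4.

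The best known target of miR-196 is itself a Hox gene. In the Hoxb8 mRNA a site at chr11:96284888-96284909 (mm10, plus strand), after the stop codon, faces miR-196a-5p over its whole length. It is shown with the bases opposite the seed in capitals.
Hoxb8 site: cccaacaacatgaaACTGCCTa
Of the 22 bases of miR-196a-5p, 21 pair with it by Watson-Crick rules, and position 5 forms a G-U wobble. The 55450 annotated genes were searched on the transcript strand without gaps. Matches in genes named as miRNA genes were left out, though these genes are part of the 55450. Of the rest, 1 gene (0.00180% of the 55450) had a site with 20 or more Watson-Crick pairs, and that gene was Hoxb8. A match describes the sequence, and no mRNA was measured here.

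The Hox-cluster miRNAs of the exosome libraries went in opposite directions. The miR-196 miRNAs made up most of the member counts in MSC exosomes and few of those in NIH3T3 exosomes, the miR-10 miRNAs did the reverse, and miR-615-3p was nearly level. Values are given as raw counts, as CPM of the miRNA total of a library, or as log2 ratios of MSC over NIH3T3 exosomes on the authors' deposited scale after adding a constant of 1 CPM. Brackets hold 95% intervals for counting error, which say nothing of the spread between cultures. A single library per group allows no test, so a miRNA was called higher or lower by size alone, at 2-fold or more. With miRNA totals of 1028186 (MSC) and 431007 (NIH3T3), 1 count stood for 0.973 and 2.32 CPM.

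For miR-196a-5p, 3232 counts were recorded in MSC and 30 in NIH3T3 exosomes, or 3143 CPM (3036 to 3254) and 69.6 CPM (47.0 to 99.4). It was high in MSC exosomes, where it ranked 51 among 1214 miRNA entries, against 279 in NIH3T3 exosomes. The log2 ratio was 5.24 (4.75 to 5.83), a 37.9-fold difference. Its sister miR-196b-5p had 3124 counts against 1, or 3038 CPM (2933 to 3147) and 2.32 CPM (0.0587 to 12.9). Its rank was 53 for MSC, close to that of miR-196a-5p, and 1162 for NIH3T3. Its log2 ratio of 9.64 (7.64 to 15.42) was the highest of the 318 miRNAs that reached 100 CPM in at least 1 library, a level it reached through the MSC library alone. Because it rests on 1 NIH3T3 count, the size of that ratio is poorly fixed. Its first place depends on the added constant, since miR-691 (188 and 0 counts) and miR-500-5p (168 and 0) had no NIH3T3 counts. Taken as a sum, which does not depend on how reads were split between the sisters, miR-196 had 6356 and 31 counts and a log2 ratio of 6.17 (5.68 to 6.75).

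miR-10b-5p, whose human counterpart represses HOXD10 in breast cancer cells, was counted 15 times in the MSC and 542 times in the NIH3T3 library. These were 14.6 CPM (8.17 to 24.1) and 1258 CPM (1154 to 1368), so it was the most abundant member in NIH3T3 exosomes, ranked 77, and ranked 812 in the MSC library. The log2 ratio was -6.56 (-7.51 to -5.93), with 4 of the 318 miRNAs lower. miR-10a-5p, which differs from it at 1 base, had 42 and 127 counts, or 40.8 CPM (29.4 to 55.2) and 295 CPM (246 to 351). It was lower in MSC exosomes too, with a log2 ratio of -3.05 (-3.63 to -2.57), an 8.30-fold difference. miR-10b-3p, from the other arm of the miR-10b hairpin, had 8 and 146 counts, or 7.78 CPM (3.36 to 15.3) and 339 CPM (286 to 398). Its log2 ratio was -5.49 (-6.92 to -4.66). The sum of miR-10a-5p and miR-10b-5p was 57 against 669 counts, at -5.02 (-5.46 to -4.65).

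miR-615-3p, the Hoxc5 intronic miRNA, was the member at a like level in both libraries. Its 624 counts (MSC) and 255 counts (NIH3T3) came to 607 CPM (560 to 656) and 592 CPM (521 to 669). Its log2 ratio was -0.20 (-0.41 to 0.017), an interval that includes 0 and lies within 2-fold.

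**Figure D2:**
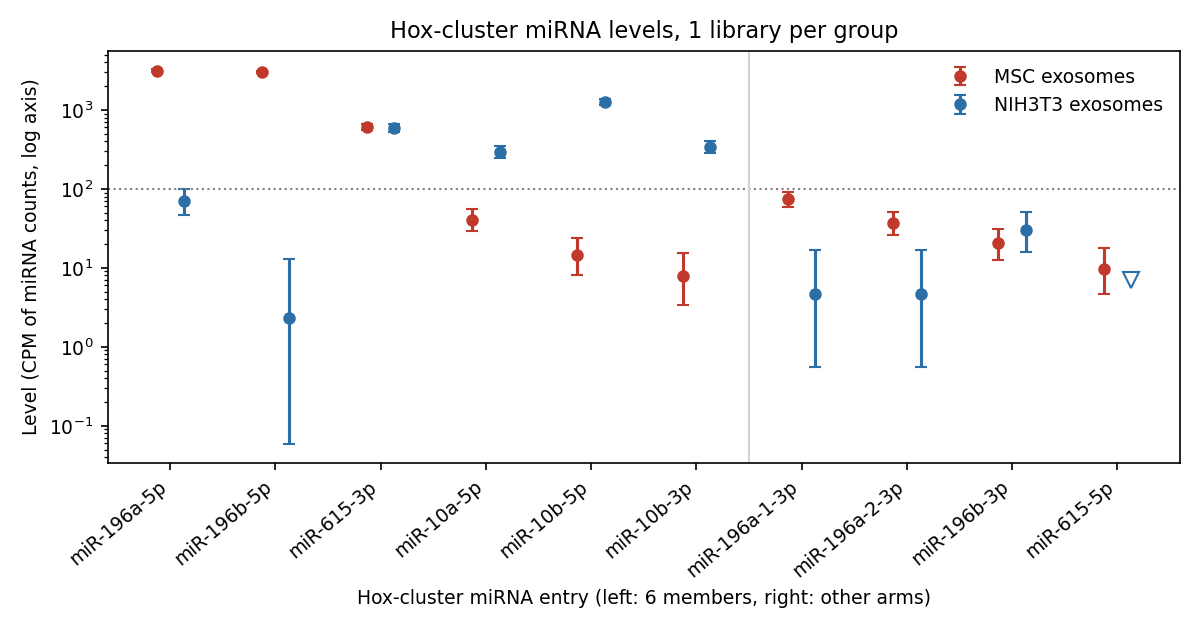
Levels of the 6 members (left of the grey line) and of the other 4 arms of their hairpins (right) in CPM of miRNA counts on a log axis; points are the 1 library of each group, bars are 95% Poisson intervals, the dotted line is 100 CPM and the open triangle is the limit that a count of 0 allows. The miR-196 members stand at 3143 and 3038 CPM in MSC exosomes and at 69.6 and 2.32 CPM in NIH3T3 exosomes, and the 3 miR-10 members lie the other way round.

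By size, 2 of the 6 members were called higher in MSC exosomes, where 34.0% of the 318 miRNAs were. Another 3 were called lower, against 26.1% of all, and 1 was within 2-fold, as were 39.9%. The count of higher members was thus near its background share. That of lower members was above its own, though 2 of these 3 are arms of 1 hairpin, Mir10b. All 2 higher and 3 lower members had a counting interval wholly beyond 2-fold. This was so for 27.4% of all miRNAs on the higher side and 22.6% on the lower side. The median log2 ratio was -1.63 over the members and 0.28 over all 318. Passing the level filter partly fixed this picture: all 6 members passed, but the 2 miR-196 entries did so through the MSC library alone and the 3 miR-10 entries through the NIH3T3 library alone, and only miR-615-3p did so in both. The median of values that lie so far apart describes no member.

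**Figure D3:**
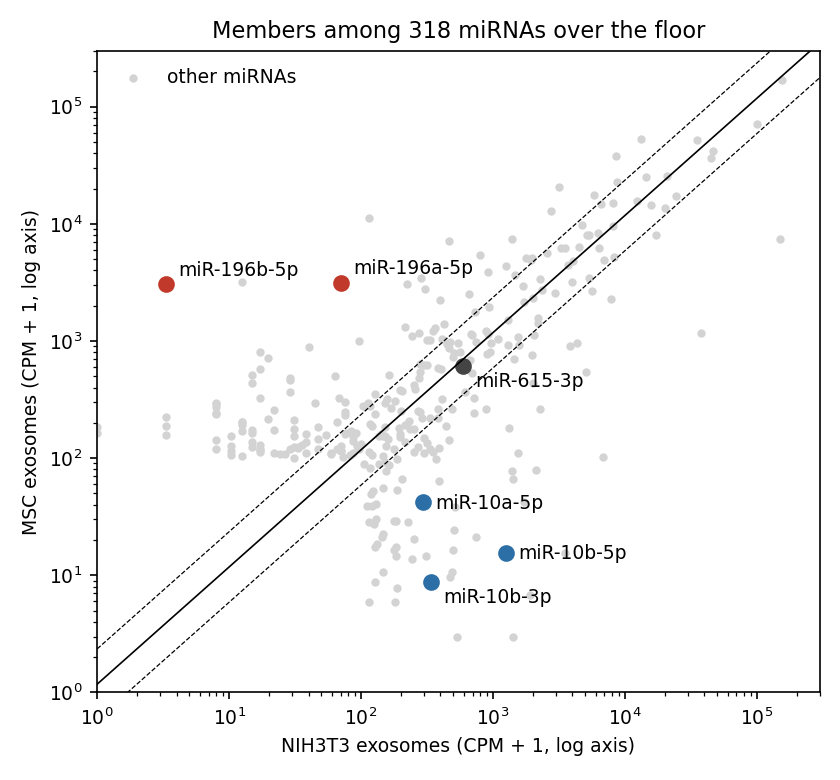
Each point is 1 of the 318 miRNAs that reached 100 CPM in at least 1 library, in CPM plus 1 on log axes, NIH3T3 exosomes across and MSC exosomes upward; the solid line is equality on the deposited scale and the dashed lines are 2-fold. The miR-196 points (red) lie far above the lines at log2 ratios of 9.64 and 5.24, the miR-10 points (blue) far below and miR-615-3p (dark) within them.

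Ratios between members inside 1 library need no scaling between libraries, and they showed the same opposition. The 6 members held 7045 MSC counts, 0.685% of that library's miRNA total (0.669 to 0.701), and 1101 NIH3T3 counts, 0.255% (0.241 to 0.271). Of these, the miR-196 sum took 90.2% for MSC (89.5 to 90.9) and 2.82% for NIH3T3 (1.92 to 3.97). The 3 miR-10 entries took 0.923% (0.713 to 1.17) and 74.0% (71.3 to 76.6). miR-615-3p held 8.86% (8.20 to 9.55) and 23.2% (20.7 to 25.8). In MSC exosomes 112 miR-196 counts were seen for each miR-10-5p count, whereas in NIH3T3 exosomes 21.6 miR-10-5p counts were seen for each miR-196 count.

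The sisters within each seed set also differed in balance. The miR-196 sisters were close to even in MSC exosomes, where miR-196a-5p took 50.8% of the sum (49.6 to 52.1). In NIH3T3 exosomes it took 96.8% (83.3 to 99.9), as 30 of 31 counts. The ratio of miR-196a-5p to miR-196b-5p was thus 0.0345 times as large in MSC as in NIH3T3 exosomes, with an interval of 8.5e-04 to 0.208. For miR-10 the order of the sisters turned: miR-10b-5p took 26.3% of the MSC sum (15.5 to 39.7) and 81.0% of the NIH3T3 sum (77.8 to 83.9). That ratio was 0.0841 times as large in MSC exosomes (0.0419 to 0.160). If some miR-10b reads had been counted as miR-10a, or the reverse, these shares would move, and the exchange was not tested.

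**Figure D4:**
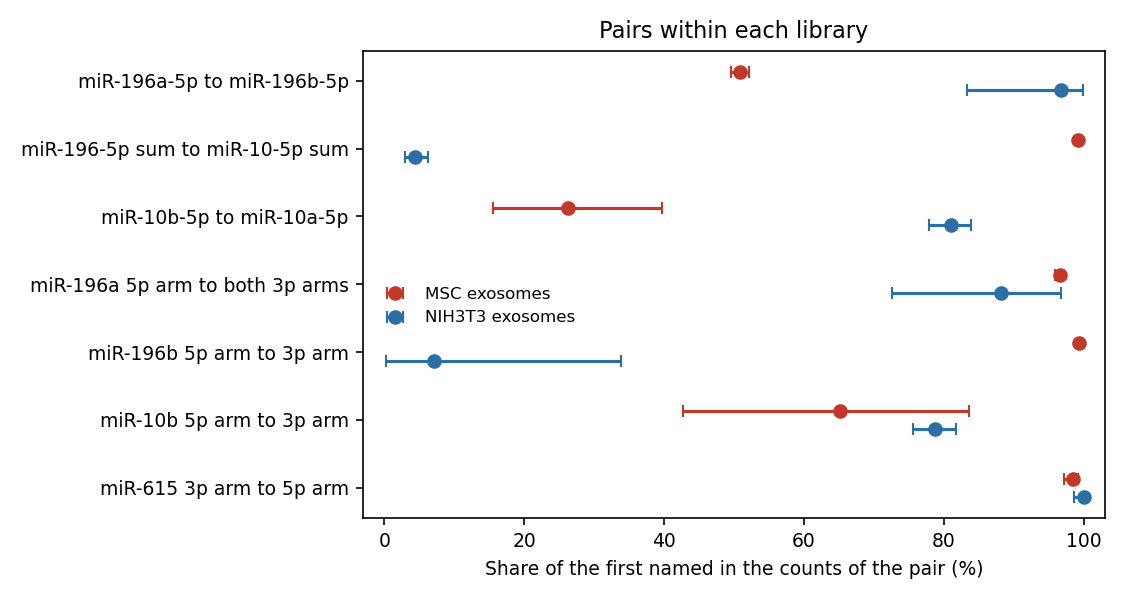
For each pair, the share in percent that the first named miRNA or arm took of the pair's counts in MSC exosomes (red) and NIH3T3 exosomes (blue), with 95% exact binomial intervals from 1 library each. The miR-196 to miR-10 share is 99.1% in MSC and 4.43% in NIH3T3 exosomes, and the 5p share of miR-196b is 99.3% and 7.14%.

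The other arms of the same hairpins, which the table held for 4 entries, were all under 100 CPM in both libraries. They matter here because the 3p arms of the miR-196a hairpins differ in sequence and so tell the Hoxb copy from the Hoxc copy.
miR-196a-1-3p: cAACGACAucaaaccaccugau
miR-196a-2-3p: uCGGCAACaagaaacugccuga
miR-196b-3p: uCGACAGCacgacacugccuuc
miR-196a-1-3p, from the Hoxb cluster, was counted 76 times in the MSC and 2 times in the NIH3T3 library (log2 ratio 3.52, 1.86 to 6.83). miR-196a-2-3p, from the Hoxc cluster, had 38 and 2 counts (2.54, 0.81 to 5.86). Both copies thus had counts in MSC exosomes, with 66.7% of the 3p counts from the Hoxb copy (57.2 to 75.2), while 4 counts in NIH3T3 exosomes were too few to compare them. How far 3p counts mirror the output of each gene is not known from these data.

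Within the Hoxb cluster the Mir196a-1 and Mir10a hairpins could be set against each other, 51940 bases apart at their nearest mature ends. For MSC the counts of miR-196a-1-3p and miR-10a-5p were 76 and 42, and for NIH3T3 they were 2 and 127. The ratio of the first to the second was 112 times as large in MSC exosomes (28.0 to 986). In the Hoxc cluster the counts of miR-196a-2-3p and miR-615-3p were 38 and 624 for MSC and 2 and 255 for NIH3T3, a ratio 7.75 times as large in MSC exosomes (1.98 to 66.8). No miRNA entry other than those of the Hox-cluster hairpins lay within 200 kb of a member. The 160 piRNA entries were not searched.

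The arms of Mir196b did not move together. Its hairpin is shown with both mature arms in capitals, the 5p arm first.
Mir196b: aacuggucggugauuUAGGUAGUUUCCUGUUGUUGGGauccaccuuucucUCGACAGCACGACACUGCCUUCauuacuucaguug
In MSC exosomes the 5p arm had 3124 counts and the 3p arm 21, so that 99.3% were 5p (99.0 to 99.6). In NIH3T3 exosomes the 5p arm had 1 count and the 3p arm 13, or 7.14% 5p (0.181 to 33.9). miR-196b-3p was thus within 2-fold between the libraries at a log2 ratio of -0.77 (-1.86 to 0.32), whereas miR-196b-5p stood at 9.64. Both arms share 18 or more bases with annotated Hoxa9 transcripts, whose exon holds the hairpin, and with no other annotated gene apart from the miRNA genes. The counts of 13 and 21 are small, and fragments of another origin were not tested for.

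For Mir10b both arms were lower in MSC exosomes. Its hairpin, with the same marking, reads as follows.
Mir10b: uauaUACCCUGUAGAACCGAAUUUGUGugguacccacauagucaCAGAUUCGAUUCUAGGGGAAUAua
The 5p arm took 65.2% for MSC (42.7 to 83.6) and 78.8% for NIH3T3 (75.5 to 81.8), and these intervals overlap. For miR-196a, the 5p share was 96.6% for MSC (95.9 to 97.2) and 88.2% for NIH3T3 (72.5 to 96.7). miR-615 was counted almost wholly as its 3p arm. Its 5p arm had 10 counts against 0 in NIH3T3 exosomes, where a count of 0 allows up to 6.96 CPM. The interval of its log2 ratio runs from -0.33 upward with no upper limit and includes 0, so no difference was detectable at this depth.

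Relatives of miR-10 outside the Hox clusters differed less between the libraries than it did. miR-99a-5p, miR-99b-5p and miR-100-5p belong to the same ancient miRNA family, but their seed, ACCCGUA, is not that of miR-10.
miR-100-5p: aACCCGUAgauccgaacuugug
This miRNA of chromosome 9 shares a run of 11 bases with miR-10a-5p. All 3 relatives were within 2-fold, as were 39.9% of the 318 miRNAs. The log2 ratio was 0.17 (-0.014 to 0.35) for miR-99a-5p (1013 and 321 counts) and 0.19 (0.13 to 0.25) for miR-99b-5p (8650 and 2697). For miR-100-5p (949 and 556) it was -0.72 (-0.87 to -0.56), on the same side as miR-10. The whole seed of miR-196, AGGUAGU, also occurs in let-7a-5p, starting at base 3 instead of base 2, so the let-7 seed is shifted by 1 base.
let-7a-5p: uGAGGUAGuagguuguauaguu

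Among miRNAs outside the Hox clusters, those with the nearest log2 ratio were named for each member, a likeness that rests on 2 libraries and 1 value. For miR-196a-5p they were miR-3070-5p (819 and 7 counts, 5.30) and miR-292b-5p (160 and 1, 5.36). For miR-196b-5p, at 9.64, the nearest were distant, miR-676-3p at 7.75 and miR-691 at 7.40, the latter with 188 counts against 0. miR-10b-5p was nearest to miR-382-5p of the Dlk1-Dio3 region (104 and 2930 counts, -6.29) and to miR-181d-5p (9 and 203, -5.82). miR-10b-3p was nearest to miR-34a-5p (-5.60) and miR-9-5p (-5.36), and miR-10a-5p to miR-1894-3p (-3.08) and miR-6360 (-3.10). miR-615-3p was nearest to miR-92a-3p (-0.20) and miR-324-5p (-0.20).

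The libraries both had the miRNAs of stromal cells. All 6 mesenchymal markers were present, with summed levels of 234678 CPM in MSC and 179691 CPM in NIH3T3 exosomes. Of these sums, the entry that joins miR-199a-3p and miR-199b-3p held 167562 and 154264 CPM. Of the 6, miR-143-3p (log2 ratio 1.90) and miR-145a-5p (1.36) were past 2-fold on the MSC side, and the other 4 lay within 2-fold, at -0.27 to 0.27. Each set of markers of other cells had a lower summed level than the mesenchymal set, but these sets list 1 or 3 miRNAs against 6. The 3 blood cell miRNAs summed to 226 and 429 CPM, with log2 ratios of -1.71 for miR-142a-3p, -1.40 for miR-451a and 0.80 for miR-223-3p. The endothelial miR-126a-3p stood at 328 and 717 CPM, and of 3 epithelial miRNAs 1 was in the table, at 27.2 and 30.2 CPM. The liver miRNA miR-122-5p, which serum also contains, stood at 9491 and 8088 CPM. In both libraries it was above the mesenchymal miR-214-3p, miR-21a-5p and miR-22-3p and below miR-199a-3p and miR-143-3p. It was below miR-145a-5p in MSC exosomes and above it in NIH3T3 exosomes. The part of other cells and of the serum in the levels of the Hox-cluster miRNAs was not tested. All levels are relative to the other counts of a library, so neither the number of vesicles nor the amount of miRNA per vesicle was measured. The MSCs and NIH3T3 cells also differ in strain, immortalisation and possibly site of origin, and these cannot be told apart here.

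The direction of each called member did not depend on the scaling. Over 6 alternatives the log2 ratio of miR-196a-5p ran from 4.97 to 5.48, that of miR-196b-5p from 7.81 to 10.06, that of miR-10a-5p from -3.33 to -2.79, that of miR-10b-5p from -6.84 to -5.87 and that of miR-10b-3p from -5.77 to -4.46. miR-615-3p stayed within 2-fold, from -0.47 to 0.037, but its sign changed with the scaling.

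**Figure D5:**
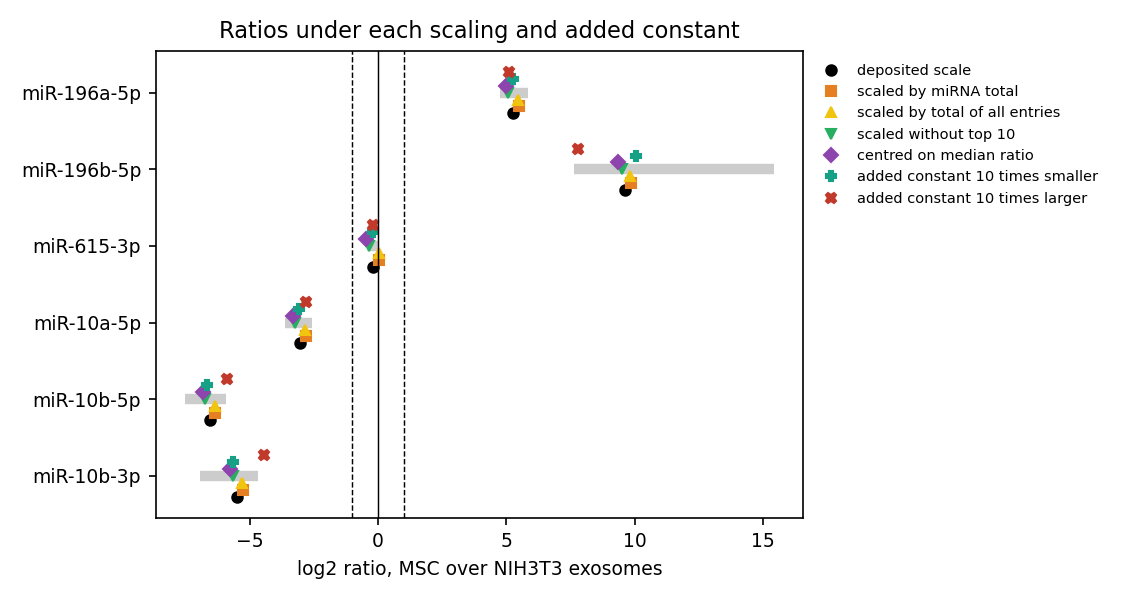
log2 ratios of the 6 members under the deposited scale and 6 alternatives, 1 marker per setting; the grey bar is the 95% counting interval on the deposited scale and dashed lines are 2-fold. For every member the 7 markers stay on the same side of the 2-fold lines.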

How the data were processed

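Per the labels' protocols, exosomal RNA was taken from culture supernatant with an exoRNeasy kit and made into libraries with the QIAseq miRNA kit. Per the file headers, the table held raw counts and normalized values. A miRNA microarray is also mentioned in the labels' protocols. The deposited raw counts were whole numbers and were treated as sequencing counts, on which every interval rests; whether they count reads or molecular identifiers, and with which aligner, counter and annotation, is not given in the sources used here. Per the submitters' processing notes, mm10 was the build. The deposited normalized values were on a log2 scale and equalled the raw counts multiplied by a library factor (0.655 for MSC, 1.84 for NIH3T3) that no source explains. Each entry had 10 or more counts in at least 1 library, and entries below that were not analysed here. No entry for miR-10a-3p was among those analysed.

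Ratios used these factors and an added constant of 0.734, which is 1 CPM of the libraries' mean scaled miRNA total. The ratio intervals are exact conditional (Clopper-Pearson) intervals, without the constant; shares have exact binomial and levels exact Poisson intervals, and ratios of within-library ratios are conditional odds ratios. All are at 95%, cover counting error only and are too narrow if PCR copies were counted. A count of 0 was taken to allow 3 counts. The floor was 100 CPM in at least 1 library (103 counts for MSC, 43.1 for NIH3T3), and the interval code was tested on simulated counts. Python 3.11.15 and scipy 1.17.1 were used.

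Named were the 6 members, the other arms of their hairpins (the rule was written by name prefix; 11 unrelated entries such as miR-1960 that share only the prefix were left out), miR-10 relatives, other miRNAs known to repress Hox mRNAs, entries within 200 kb, the 2 nearest ratios per member and cell type markers. The members and all lists were chosen with earlier results of these data known. let-7a-5p was added for its sequence. Positions were compared with GENCODE M21 and RefSeq GRCm38.p6, the same build.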

Additional observations from a re-analysis of the deposited data

How the results depend on the processing

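Over 6 alternatives for scaling and added constant, all 48 recomputed log2 ratios of the members and of the miR-196 and miR-10 sums stayed on their side of the 2-fold bounds. miR-615-3p moved beyond its counting interval, to 0.037 when scaled by the miRNA total, 0.021 by the total of all entries and -0.47 when centred. With a constant 10 times larger, miR-10b-5p moved to -5.87 and miR-10b-3p to -4.46, as low counts do by construction. A floor of 1000 CPM left 1 lower member, miR-10b-5p, by leaving out miR-10a-5p and miR-10b-3p. The background moved with the floor and size, from 108 higher and 83 lower to 282 and 309 at 10 CPM, 34 and 25 at 1000 CPM, 289 and 309 with no floor, and 63 and 52 at 4-fold. The median log2 ratio of all miRNAs moved from 0.28 to 0.51 by the miRNA total, 0.50 by all entries and 0.11 without the 10 most abundant miRNAs, less than any called member's distance from 0. No paired analysis was possible because each group held 1 library, and for the same reason no replicate could be left out. Depth limits miR-196b-5p most, with 1 count in the NIH3T3 library.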

Other observations

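Other miRNAs known to repress Hox mRNAs, encoded outside the Hox clusters, also differed between the libraries. miR-130a-3p, which represses HOXA5 in human endothelial cells, was higher in MSC exosomes, with 3997 and 397 counts (log2 ratio 1.84, 1.69 to 1.99). miR-181a-5p, known to act on Hoxa11 during muscle differentiation, had 125 and 167 counts (-1.90, -2.25 to -1.56), and its seed relative miR-181b-5p had 146 and 198 (-1.92, -2.25 to -1.61). miR-126a-3p, a repressor of Hoxa9, had 337 and 309 counts (-1.36, -1.59 to -1.14). Of these 4, 1 was thus called higher in MSC exosomes and 3 were called lower, where 34.0% and 26.1% of the 318 miRNAs over the floor were.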
